A study of Mus musculus with 8 samples.

Results

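Cytosolic ribosomal protein genes encode the proteins of the large and small subunits of the ribosome. They were taken here as the protein-coding mouse genes whose symbols follow the pattern Rpl, Rps, Rplp or Rpsa, and the rule found 76 of the 21887 protein-coding genes placed on an autosome, X or Y. Of these, 43 belong to the large subunit, 30 to the small subunit and 3 to the stalk (Rplp0, Rplp1 and Rplp2), and 72 are autosomal and 4 X-linked. Their chromatin was read from chromatin immunoprecipitation followed by sequencing (ChIP-seq) of histone H3 carrying acetyl groups (H3ac), which marks open promoters and enhancers, and of the histone deacetylase HDAC1. The cells came from embryonic stem cells of strain 129/Ola mice, grown on gelatin in N2B27, a medium without serum in which they differentiate. H3ac was precipitated with an antibody to acetylated H3 on days 2, 4 and 6, and HDAC1 on day 2 through a FLAG tag on the protein. The labels name the tagged protein for the HDAC1 libraries alone and do not say whether a pool or 1 clone was used. There was 1 ChIP and 1 input library per target and day, 8 in all, so no difference between days or targets has a replicate check and no test was made.

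A ribosome needs its proteins in fixed proportions, so these genes are transcribed together and at high rates in growing cells. Their promoters often lie at CpG islands, and their transcripts typically begin with a C followed by a run of pyrimidines, the terminal oligopyrimidine motif, through which mTOR signalling adjusts their translation. Stem cells and their early progeny divide fast, and ribosomal protein genes are among the strongly acetylated promoters in such cells. HDAC1 removes acetyl groups from histones and is often found at active, acetylated genes, where it takes part in the turnover of the mark.

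The start of such a gene is short and compact, as promoter sequences of RefSeq (build GRCm38.p6) show for the members around which the results below turn. Sequences run 5′ to 3′ on the coding strand from 80 bases before to 20 bases after the annotated start. Capitals mark an oligopyrimidine tract whose C lies within 10 bases of the annotated start and is followed by at least 4 pyrimidines, and any match on either strand to CCGGAAG, bound by ETS factors such as GABP, or to AANATGGC, bound by YY1. Rps6 and Rpl28 show the tract at the annotated start itself, and Rps18 shows it with an ETS match. Rpl13a and Rpl4 had the strongest H3ac peaks of all members on days 2 and 6, Rpl34 and Rps21 lacked a peak on day 6, and Rps4x and Rpl10 are X-linked.
Rps6, chr4:86857348-86857447, minus strand: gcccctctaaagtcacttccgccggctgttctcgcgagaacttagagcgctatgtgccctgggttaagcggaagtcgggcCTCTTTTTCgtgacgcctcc
Rpl28, chr7:4792885-4792984, plus strand: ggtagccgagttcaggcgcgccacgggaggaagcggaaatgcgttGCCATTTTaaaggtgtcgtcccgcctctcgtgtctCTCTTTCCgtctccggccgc
Rps18, chr17:33955646-33955745, minus strand: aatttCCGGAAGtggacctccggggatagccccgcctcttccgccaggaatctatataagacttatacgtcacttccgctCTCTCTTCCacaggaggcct
Rpl13a, chr7:45128726-45128825, minus strand: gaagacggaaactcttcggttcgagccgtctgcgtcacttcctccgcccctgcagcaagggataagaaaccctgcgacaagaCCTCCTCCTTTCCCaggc
Rpl4, chr9:64173307-64173406, plus strand: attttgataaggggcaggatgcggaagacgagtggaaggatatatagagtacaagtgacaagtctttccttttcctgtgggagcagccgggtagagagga
Rpl34, chr3:130730318-130730417, minus strand: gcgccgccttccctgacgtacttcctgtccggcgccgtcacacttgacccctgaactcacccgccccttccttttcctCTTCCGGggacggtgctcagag
Rps21, chr2:180257299-180257398, plus strand: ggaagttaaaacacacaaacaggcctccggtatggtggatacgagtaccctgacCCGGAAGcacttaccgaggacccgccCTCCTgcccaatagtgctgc
Rps4x, chrX:102189372-102189471, minus strand: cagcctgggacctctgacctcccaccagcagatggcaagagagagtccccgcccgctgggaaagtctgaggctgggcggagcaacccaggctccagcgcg
Rpl10, chrX:74270736-74270835, plus strand: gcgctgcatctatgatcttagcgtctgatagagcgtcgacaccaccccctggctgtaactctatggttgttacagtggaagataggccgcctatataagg

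Among the 56 members with a promoter sequence in the table (250 bases before to 50 after the start), 34 had an oligopyrimidine tract at the start, a share of 60.7% (95% Wilson interval 47.6 to 72.4%). The share was 34.9% of all 17492 protein-coding genes with a sequence and 35.9% of the 7200 such genes with a day 2 H3ac peak. The ETS motif CCGGAAG was found in 23 members (41.1%, 29.2 to 54.1%), against 12.9% of all genes and 22.9% of day 2 genes, and the YY1 motif AANATGGC in 11 (19.6%, 11.3 to 31.8%), against 7.46% and 11.3%. GGGCGG, bound by Sp1, was found in 34 members (60.7%), against 49.2% of all genes and 70.6% of day 2 genes. TATAAA, the TATA box, and CACGTG, bound by Myc, were found in 6 members each (10.7%), against 14.8% and 8.91% of all genes and 7.6% and 12.4% of day 2 genes. All motifs were searched on both strands except the tract, and the ETS and tract matches of Rpl34 overlap. Of 21263 single promoters, 11.6% held the ETS motif, 6.37% the YY1 motif, 46.2% the Sp1 motif, 12.6% the TATA box, 7.84% the Myc motif and 31.1% the tract. A match is a description of the letters and not of binding.

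**Figure D1:**
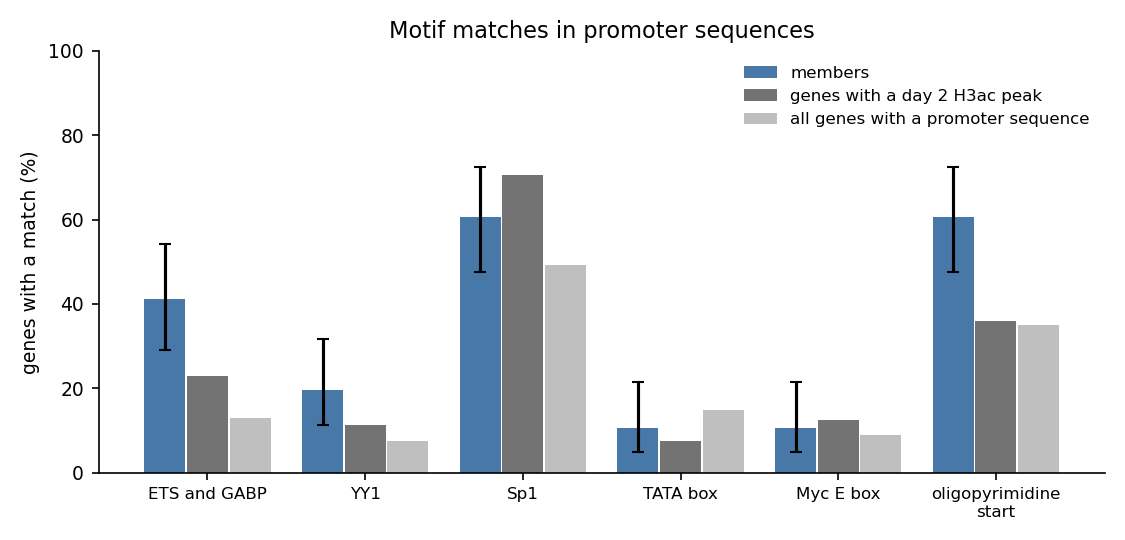
Share of genes (%, vertical axis) whose promoter sequence held each motif, for the 56 members with a sequence (blue, error bars are 95% Wilson intervals over genes), genes with a day 2 H3ac peak (dark grey) and all protein-coding genes with a sequence (light grey). The members' intervals for the ETS motif and the oligopyrimidine start lie above both grey bars, and the YY1 interval, 11.3 to 31.8%, starts at the day 2 share of 11.3%.

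H3ac marked nearly all members on each day. A gene counts as marked when any base of a peak lies within 1 kb of either end of the gene as RefSeq gives it. On day 2 this held for all 76 members (100%, 95.2 to 100%), on day 4 for 75 (98.7%, 92.9 to 99.8%) and on day 6 for 70 (92.1%, 83.8 to 96.3%), where the shares over all protein-coding genes were 40.6%, 38.0% and 23.3%. Rpl22 was the 1 member without a day 4 peak, where 21.0% of genes marked on day 2 had none. On all 3 days 69 members were marked, against 18.5% of all genes. The 76 day 2 peaks, 75 day 4 peaks and 70 day 6 peaks were all distinct, so no pair of members shared its strongest peak. Another gene's end lay within 1 kb of the peak at 22 members on day 2, 20 on day 4 and 25 on day 6. Such peaks may belong to the neighbour, as at Rpl4, which faces Zwilch, a kinetochore gene, and at Rps18, beside Vps52, a vesicle transport gene.

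The lists differ in ways that touch all that follows. They held 17368 peaks of median width 591 bp on day 2, 12945 of 792 bp on day 4 and 5553 of 1898 bp on day 6, and 5286 HDAC1 peaks of 311 bp. The authors' peak scores, whose scale is not stated, start at 50 in each list. They rank peaks within a list here and cannot be set against each other between lists, nor can ranks in lists of unequal length show a change. Read depth is unknown, so a gene without a called peak may still be acetylated or bound, and the part of depth and peak width in any difference between days was not tested. The labelled cell type was read from marker genes. Pou5f1, Sox2 and Nanog, of pluripotent cells, had a peak on day 2 (3 of 4, Zfp42 having none). Their ranks were 32, 1193 and 16386, and the score at Nanog, 52.10, was near the lowest of the list. On days 4 and 6 Sox2 alone of these 4 genes had a peak. Of 4 neural progenitor markers 1, 3 and 1 were marked on days 2, 4 and 6, and of 7 markers of mesendoderm, trophoblast and extraembryonic endoderm none was.

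On day 2 the members stood near the top of the list. Their median rank was 196 of 17368, which is the top 1.13% of peaks, where genes with a gene-end peak as a whole had their median at 27%. Of the 76, 67 were in the top 10% and 35 in the top 1%, and 25 of the 100 highest-scoring genes were members, though members are 0.347% of all genes. Rpl13a, a large subunit gene, had rank 2 with a score of 2065.48 in a peak 3599 bp wide. It was followed by Rpl4 (score 1336.24, rank 10), Rps19 (1282.22, rank 13), Rps14 (1223.13, rank 15) and Rps26 (1119.23, rank 22). Rps19 and Rps14 encode small subunit proteins whose loss is tied to failing red cell production.

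On day 4 the median rank of the 75 marked members was 585 of 12945, or 4.52%, against 32.8% for all marked genes. On day 6 that of the 70 marked members was 1033.5 of 5553, or 18.6%, against 44.7%. The members thus stood above the marked genes of each list, and 9 of the 100 highest-scoring genes were members on day 4 and 2 on day 6. Rpl13a kept a place at the top, with rank 9 on day 4 and 14 on day 6. Rpl4 stood at rank 130 on day 4 and at rank 7 on day 6. The other high-scoring members of day 4 were Rpl3 (1037.79, rank 25), Rpl27a (933.74, rank 40) and Rpl32 (904.01, rank 44), of the large subunit, and Rps19 (825.92, rank 60), of the small. The spread of the members was wide on day 6, where 19 lay in the top 10% of peaks and 13 in the lower-scoring 50%. Among the weakest were Rpl11 (53.19), Rpl9 (53.51), Rpl13 (56.93) and Rpl29 (61.11), close to the lowest score of 50. Rpl11 binds Mdm2, the p53 inhibitor, when ribosome assembly fails, and its score was 563.52 on day 2 (rank 237) and 386.98 on day 4 (rank 684). Rpl5, its partner in that binding, had scores of 737.40, 538.62 and 480.86 at ranks 123, 256 and 312 on days 2, 4 and 6. The order of the members was alike on days 2 and 4 (Spearman's rho of scores 0.70, n = 75) and less so on days 2 and 6 (0.28, n = 70) and days 4 and 6 (0.11, n = 69). For all genes marked on both days the values were 0.56, 0.22 and 0.25. Without the 4 X-linked members they were 0.66, 0.44 and 0.24 for the members, so the low values with day 6 rest in part on those 4 genes. These describe genes that share a library and are not independent.

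**Figure D2:**
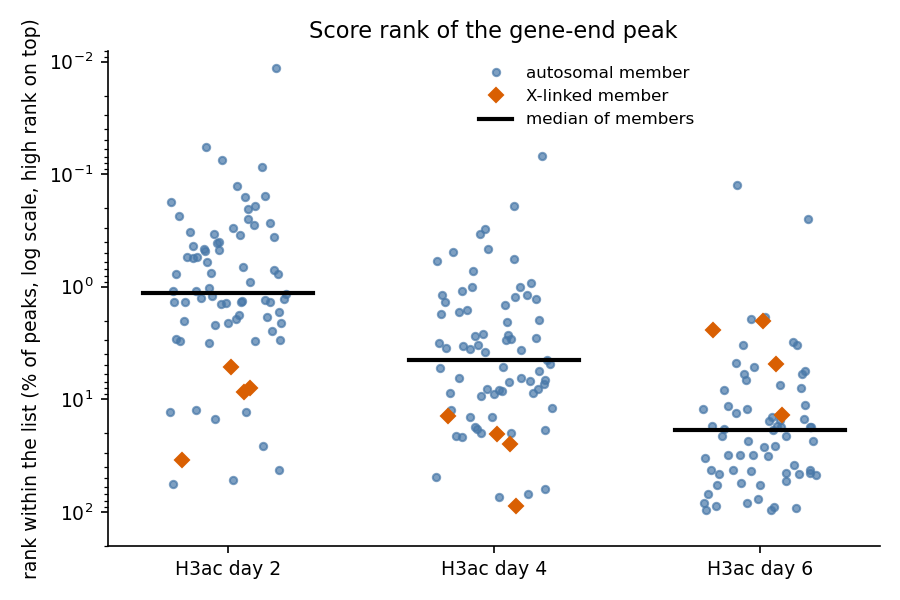
Rank of each member's highest-scoring gene-end H3ac peak as a percentage of the peaks of its list (log axis, strongest on top), with autosomal members as blue circles, X-linked members as orange diamonds and the median as a bar at 1.13%, 4.52% and 18.6%. The X-linked members lie below the median bar on days 2 and 4 and above it on day 6, and ranks from lists of different length do not show a change.

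Several of the lowest ranks, and the single absence of day 4, were at members with a stronger peak inside the gene. The 5 lowest day 2 scores were those of Rpl22 (72.33, rank 9927), Rpl17 (77.76, rank 9047), Rpl18 (92.03, rank 7370), Rps4x (108.81, rank 6015) and Rps2 (136.79, rank 4556). At Rpl22, which encodes a large subunit protein, the RefSeq gene begins at 152324436 on chromosome 4, and another annotated start lies at 152325726. A peak inside the gene, from 152325819 to 152328186, scored 1099.25 (rank 24) on day 2, and 1 from 152325762 to 152327511 scored 526.22 (rank 277) on day 4, when no gene-end peak was called. Rpl19, on chromosome 11 from 98022003 to 98030493 with starts at 98026710 and 98026924, likewise held internal peaks of rank 88 on day 2, 92 on day 4 and 106 on day 6, the last from 98025634 to 98028550. Rpl18 and Rpl17 held internal peaks of rank 509 and 481 on day 2 and of rank 168 and 1769 on day 4. Rps2, with an internal peak of rank 4054, stayed low, and Rps4x had no stronger internal peak. When a peak anywhere in the gene or within 1 kb of it was counted, a reading chosen after these values were seen, 76, 76 and 71 members were marked on days 2, 4 and 6, against 47.9%, 44.0% and 25.5% of all genes, and the median ranks were 183, 472 and 1026.

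By subunit, the marked members were 43, 42 and 39 of 43 for the large and 30, 30 and 28 of 30 for the small subunit on days 2, 4 and 6, and all 3 stalk genes were marked each day. Median ranks were 220, 655 and 1169 for the large and 156, 458 and 1007 for the small subunit, and the ranges overlapped. The stalk proteins recruit the translation factors that drive elongation. Rplp2 had ranks 63, 728 and 625 on days 2, 4 and 6. Rplp0 had ranks 553, 2280 and 3070. Rplp1 had ranks 2628, 2600 and 673, the lowest of the 3 on day 2 and the middle one on day 6. Rpsa, a small subunit protein also known as the laminin receptor, had ranks 82, 496 and 108. Rps6, whose phosphorylation is a common readout of mTOR signalling, had ranks 134, 947 and 988, and Rps3, which lines the messenger RNA entry channel, had ranks 211, 427 and 332.

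The 4 X-linked members stood apart from the autosomal ones in the order of scores. Rps4x, whose X-linked copy supplies this small subunit protein in mice, had scores of 108.81 on day 2, 250.23 on day 4 and 636.51 on day 6, at ranks 6015, 1827 and 134. Rpl39 had scores of 341.25, 205.06 and 663.51, at ranks 900, 2614 and 113. Rpl10 had scores of 270.23, 181.23 and 512.92, at ranks 1486, 3228 and 269. Rpl36a had scores of 280.30, 54.33 and 322.19, at ranks 1373, 11613 and 773. With internal peaks counted, these 4 ranked 69, 70, 71 and 76 of 76 members on day 2 and 63, 71, 74 and 76 of 76 on day 4, and 6, 7, 12 and 26 of 71 on day 6. So they were among the lowest members on the first 2 of these days and in the upper part on the last. Their median rank was 8.23%, 22.6% and 3.63% of the list on days 2, 4 and 6, and that of the autosomal members 1.05%, 3.68% and 21.2%.

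Other X-linked genes were ranked low on all 3 days. Among genes with a gene-end peak, the 175 X-linked ones other than members had their median at 68.4% of the order on day 2, the 141 of day 4 at 73.8% and the 160 of day 6 at 63.9%, where 50% is the middle. Of 962 such genes, 18.2%, 14.7% and 16.6% were marked on days 2, 4 and 6, and of all autosomal genes 41.6%, 39.0% and 23.6%. Of the X-linked genes other than members marked on day 2, 58.9% were marked on day 4 and 55.4% on day 6, and of the autosomal genes other than members 79.2% and 49.4%. The labels do not give the sex of the cells or the number of X chromosomes, and their part in these values was not tested.

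Peak width set the members apart in another way. The strongest gene-end peak of a member had a median width of 1747 bp on day 2 (lowest 497, highest 3860), 1401 bp on day 4 (484 to 3272) and 2954 bp on day 6 (1531 to 4707). For all genes with a gene-end peak the medians were 807, 970 and 2116 bp. The widest were at Rpl30 on day 2 (3860 bp), Rps10 on day 4 (3272 bp) and Rpl30 again on day 6 (4707 bp), followed on day 6 by Rps19 (4700 bp), Rps12 (4558 bp) and Rpl10a (4521 bp). The narrowest of day 6 was at Rps29 (1531 bp). Day 4 peaks were narrower than day 2 peaks at most members: 26 of 75 (34.7%) widened, with a median ratio of 0.85, while 62.3% of all genes marked on both days widened, with a ratio of 1.14. From day 2 to day 6, 66 of 70 members (94.3%) widened, by a median ratio of 1.51, against 97.3% of all genes and a ratio of 2.22. From day 4 to day 6 the ratios were nearly equal, 1.91 for members and 1.94 for all genes, and 98.6% and 97.6% widened. The smaller factor of members thus held from day 2 and not from day 4. Members' peaks were already wider on day 2, with a median of 1747 bp against 807 bp. The ratios were not matched on starting width, so they do not show a trait particular to these genes.

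**Figure D3:**
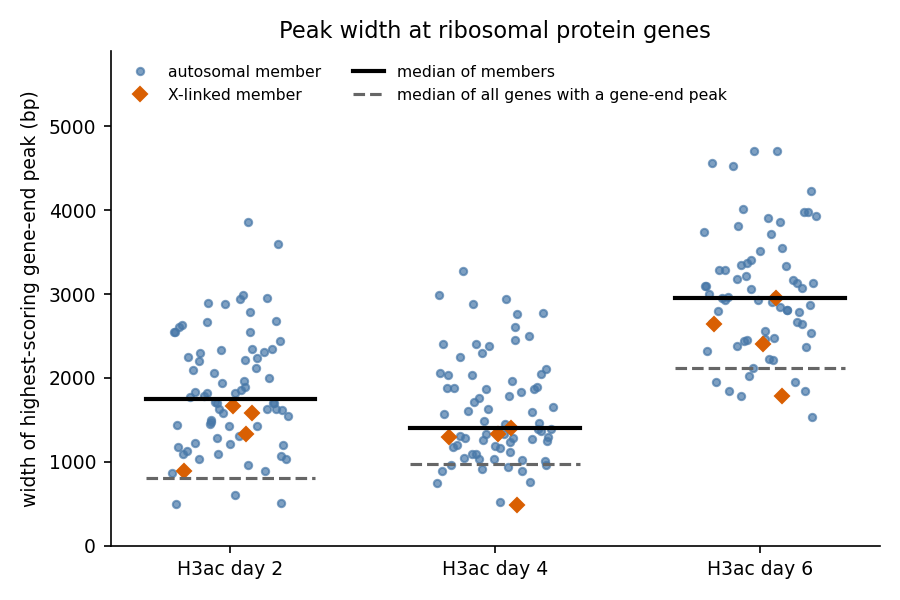
Width in bp of each member's highest-scoring gene-end H3ac peak by day, with autosomal members as blue circles, X-linked members as orange diamonds, the members' median as a black bar and the median of all genes with a gene-end peak as a dashed bar. The members' medians of 1747, 1401 and 2954 bp lie above those of all marked genes, 807, 970 and 2116 bp.

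Higher-scoring peaks are wider, so each member was also set beside the 100 other genes nearest to it in score on the same day. On day 2, 31 of 76 members had a peak wider than the median of their 100 neighbours in rank, with a median ratio of 0.92, and on day 4 28 of 75, with a ratio of 0.88. On day 6, 53 of 70 did, with a ratio of 1.27 and a median difference of 630 bp. On days 2 and 4 the members' peaks were therefore somewhat narrower than those of genes of like rank, and on day 6 wider. Width went with score among members on day 2 (rho 0.83) and day 4 (0.74) and not on day 6 (0.02), while for all marked genes rho was 0.84, 0.84 and 0.35.

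The peaks covered the first part of the transcribed gene more than the upstream region. For members with a known strand, the median peak reached 28 bp upstream and 1682 bp downstream of the 5′ gene end on day 2 (n = 56), 5 and 1408 bp on day 4 (n = 55), and 764 and 2192 bp on day 6 (n = 52). The midpoint lay downstream of the start in 96.4%, 92.7% and 98.1% of members and in 77.3%, 79.4% and 81.6% of other marked genes. For those other genes the reach was 2 and 858 bp, 8 and 985 bp, and 577 and 1508 bp. The upstream reach of members was thus near that of other genes on days 2 and 4 and longer on day 6. The downstream reach was longer on each day. These reaches were not matched on score, so they do not show a trait particular to the members. Members are short genes, with a median length of 3170 bp (982 to 11774) against 17169 bp for all protein-coding genes. A single peak spanned the whole gene at 6 members (7.89%) on day 2 and 2 (2.67%) on day 4. Of other marked genes, 0.114% and 0.243% were spanned on those days. On day 6 a single peak did so at 13 of 70 members (18.6%), among them Rpl30, Rpl10a, Rps12 and Rps29. The day 6 share was 1.31% of other marked genes, or 3.19% of those from 1 to 12 kb long. That last set had a median length of 6504 bp, so this comparison was not matched on length. Peaks lay within 1 kb of both ends at 35 of 76, 26 of 75 and 36 of 70 members, against 7.65%, 6.65% and 6.08% of marked genes. HDAC1 peaks did so at 3 of 16 members, against 3.26%. These both-end shares were not matched on gene length, and the ends of a short gene lie close together.

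**Figure D4:**
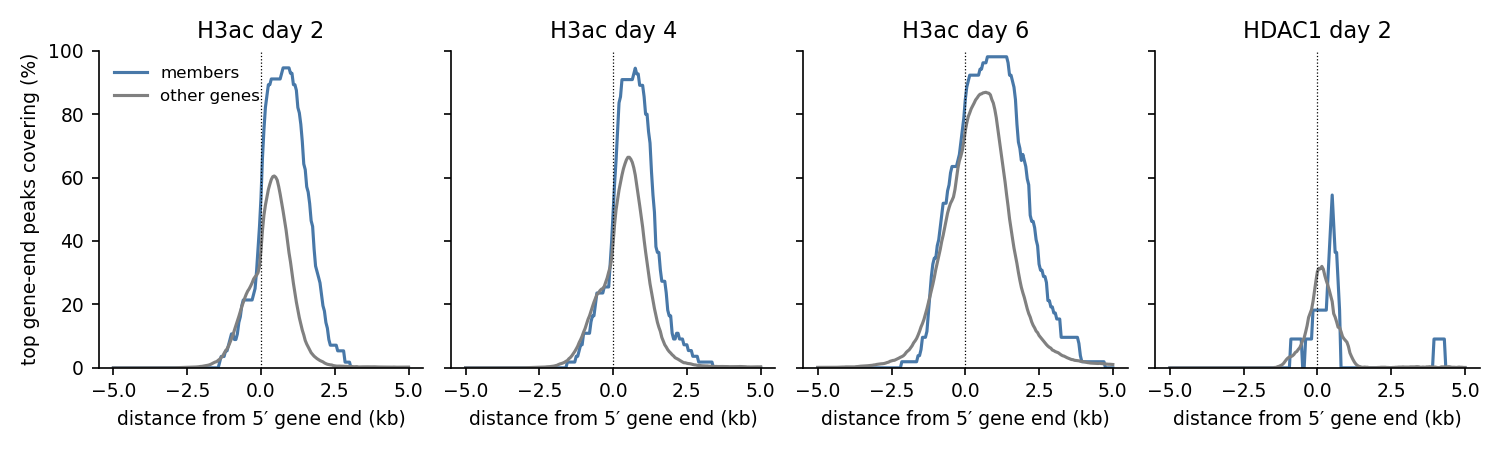
Share of genes (%) whose highest-scoring gene-end peak covered each position from 5 kb upstream to 5 kb downstream of the 5′ gene end, for members (blue; 56, 55, 52 and 11 genes in the panels from left to right) and other genes with a known strand (grey). H3ac of members lies to the right of the start, with a median reach of 1682 bp downstream on day 2 and 2192 bp on day 6, and widens to both sides on day 6.

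The members without a day 6 gene-end peak were Rps15, Rpl8, Rpl34, Rps21, Rpl36 and Rpl19, 6 of 76, where 50.1% of all genes marked on day 2 had none. Rpl19 held the strong internal day 6 peak given above, 1943 bp from a gene end, which leaves 5. Rps15, a small subunit gene on chromosome 10 from 80292431 to 80294114, had a score of 786.52 (rank 95) on day 2 and 456.40 (rank 438) on day 4, and its nearest day 6 peak lay 26129 bp away. Rpl8, on chromosome 15 from 76904071 to 76906318, had 767.90 (rank 104) and 723.11 (rank 93), with the nearest day 6 peak at 18260 bp. Rpl34 had 601.18 (rank 201) and 271.06 (rank 1534), with the nearest at 17137 bp. Rps21 had 428.70 (rank 502) and 568.37 (rank 226), with the nearest at 83988 bp. Rpl36 had 216.90 (rank 2233) and 207.22 (rank 2572), with the nearest at 23030 bp. Rps15 and Rpl8 were thus strongly marked on days 2 and 4 and lay far from any day 6 peak.

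Of the 100 genes nearest to Rps15 and to Rpl8 in day 2 rank, 91 had a day 6 peak in each case, and the numbers were 84 for Rpl34, 82 for Rps21 and 50 for Rpl36. The genes around these members were read in the same way, without a test. Within 100 kb of Rps15, 6 of 12 other genes had a day 2 peak and 2 of these had a day 6 peak. Around Rpl8 the numbers were 5 of 6 and 2, around Rps21 3 of 6 and 1, around Rpl36 8 of 8 and 3, and around Rpl34 1 of 2 and 1.

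Over all members, 92.1% (83.8 to 96.3%) of those marked on day 2 were marked on day 6. Other genes in the same deciles of day 2 score, weighted as the members fall, gave 73.9%, and the 100 genes nearest to each member in rank gave 80%. Both lie below the members' interval, which covers counting error over genes alone. Neither comparison was matched on gene length, whose median was 3170 bp at members and 17169 bp over all protein-coding genes. The part of length in the gap was not tested. When the midpoint of a peak had to lie within 1 kb, 20 members lost their peak by day 6 and the excess over genes of the same deciles fell from 18.2 to 9.2 points. The members' share was then 71.8% (60.5 to 81%) and that of other genes 62.6%, inside the interval, so the separation was lost. With the higher-scoring 50% of each list 19 members lost their peak, and the shares were 74.3% (63.3 to 82.9%) and 58.4%. For day 4 the members' 98.7% (92.9 to 99.8%) stood beside 96.1% and 95.1%, inside the interval. Of 78 mitochondrial ribosomal protein genes 70 were marked on day 2, and 61.4% of these (49.7 to 72.0%) were marked on day 6, beside 58.7% of genes of nearest rank. Of 39 proteasome subunit genes 35 were, and 62.9% (46.3 to 76.8%) beside 55.5%. In these 2 families the share of other genes lay inside the interval.

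**Figure D5:**
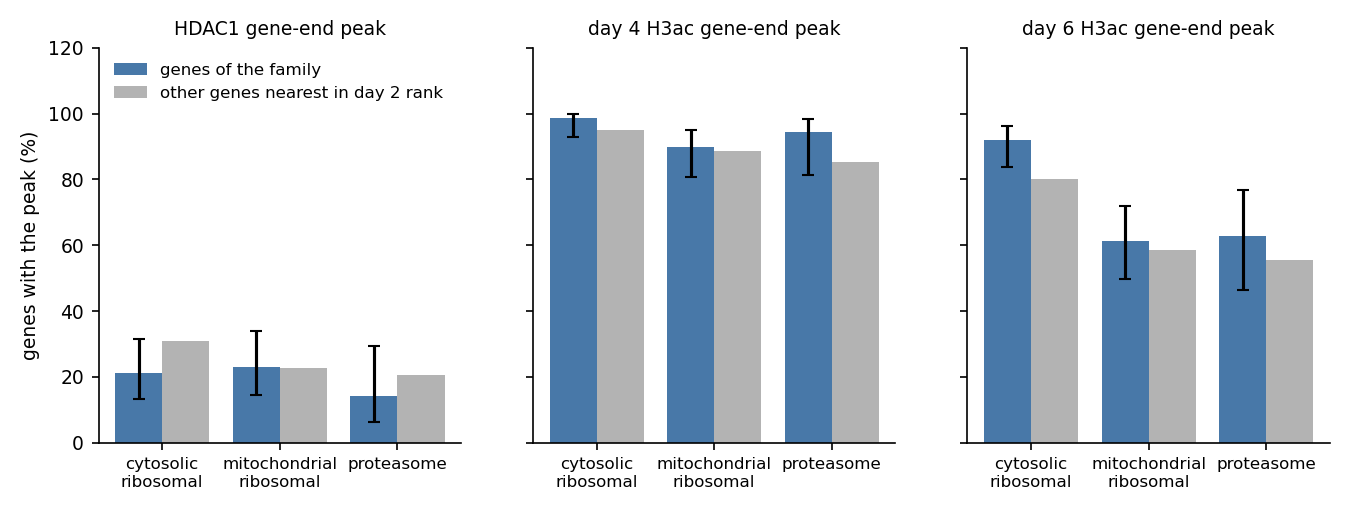
Share (%) of genes with a day 2 H3ac gene-end peak that also had an HDAC1 peak on day 2 (left) or an H3ac peak on day 4 (middle) or day 6 (right), for 3 gene families (blue, error bars are 95% Wilson intervals over genes) and for the 100 other genes nearest in day 2 rank (grey). For cytosolic ribosomal protein genes the day 6 share, 92.1%, has an interval above the grey bar at 80%, and the HDAC1 share, 21.1%, has an interval that holds the grey bar at 31%.

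HDAC1 was called at 16 of the 76 members on day 2, or 21.1% (13.4 to 31.5%). Of all protein-coding genes 9.40% had an HDAC1 gene-end peak, and of those with a day 2 H3ac peak 18.7% did. Since HDAC1 was called more often at genes with higher H3ac scores, from 11% of other genes in the lowest decile to 31.1% in the highest, where 64 of the members lay, the members were compared with genes of similar rank. Other genes in the same deciles gave 29.4% and the 100 nearest in rank 31%. The members' share was thus 8.3 and 10.0 points lower, and both comparison shares lie inside its interval, so with gene-end peaks a difference was not detectable with 76 genes. With internal peaks counted, 16 members and 15.8% of all genes had HDAC1, and other genes of the same deciles gave 35.6%, which is 14.6 points higher and above the members' interval. The call thus depends on where a peak counts. Counting internal peaks takes in more sequence at longer genes, and gene length was not matched. Members had a median length of 3170 bp, against 17169 bp for all protein-coding genes. So the larger gap cannot be told apart from the difference in length. With the 36 members that have no other gene end within 2 kb the members' share was 1.7 points lower. With the higher-scoring 50% of each list 9 of 74 members marked on day 2 had HDAC1 (12.2%, 6.53 to 21.5%). Other genes of the same deciles then gave 16.7%, inside the interval. Mitochondrial ribosomal protein genes gave 22.9% beside 22.8% for genes of nearest rank, and proteasome genes 14.3% beside 20.7%.

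The HDAC1 peaks of members were of middle rank. The strongest was at Rpl4, on chromosome 9 from 64172443 to 64172883 with a score of 117.19 (rank 612 of 5286), centred 724 bp upstream of the start on the side of Zwilch. Next came Rps18 (105.84, rank 810), Rpl15 (95.87, rank 1047), Rps20 (93.63, rank 1109), Rps26 (77.77, rank 1712) and Rpl27a (73.43, rank 1986). Rpl28, Rps15a and Rpl5 had scores from 70.89 down to 61.48, and Rpl6, Rpl3, Rpl27, Rpl35 and Rps27a from 60.89 to 51.76. The median rank was 2408.5, beside 2510 for all genes with an HDAC1 gene-end peak, and no member was in the top 10% of the list. All 16 members with HDAC1 had a day 2 H3ac gene-end peak, where 1661 of the 2057 protein-coding genes with HDAC1 did. The sets in the next comparison are therefore unlike. At 14 of the 16 members (87.5%, 64.0 to 96.5%) the HDAC1 peak overlapped a day 2 H3ac peak by at least 1 bp, and at 64.7% of other genes with HDAC1. The exceptions were Rpl27a, whose HDAC1 peak was centred 4122 bp downstream of its start near Denn2b, and Rpl27, whose peak covered the start, with its midpoint 24 bp upstream, and was overlapped by a day 6 H3ac peak alone.

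Members with HDAC1 had a median day 2 H3ac rank of 119.5 and those without 215.5, and the ranges, 10 to 2179 and 2 to 9927, overlapped. Median widths were 1797 and 1710 bp. All 16 members with HDAC1 had a day 6 H3ac peak, and 54 of the 60 without it. Among members with a strand the HDAC1 midpoint lay a median of 466 bp downstream of the 5′ gene end (n = 11), against 194 bp at other genes. No X-linked member had HDAC1, and of the 962 other X-linked genes 1 did.

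Other genes of translation were read from lists chosen by function. All 5 ribosomal fusion genes and ribosome-bound partners, among them Rack1, Naca and Btf3, were marked on days 2 and 4 and 4 on day 6, where Naca, of the nascent chain complex, lacked a peak after ranks 56 and 66. Rack1, a scaffold on the small subunit, had ranks 66, 190 and 160. Of 18 other genes whose transcripts carry the oligopyrimidine motif, 18, 18 and 16 were marked. Eef1a1, the elongation factor that brings transfer RNA, had ranks 39, 151 and 360, and Eef2, which moves the ribosome forward, had ranks 86 and 133 and no peak on day 6. Of 18 ribosome assembly genes 17, 17 and 13 were marked, with Ncl, which encodes nucleolin, at ranks 18, 212 and 561. HDAC1 was called at 0 of 5, 6 of 18 (33.3%, 16.3 to 56.3%) and 8 of 18 (44.4%, 24.6 to 66.3%) genes of these 3 lists. Of all protein-coding genes 9.40% had an HDAC1 gene-end peak, and of those with a day 2 H3ac peak 18.7%. The lists were not matched on H3ac rank. Of the paralogs outside the rule, 7 of 8 matched a protein-coding gene, and 4, 5 and 2 of these were marked. Rpl10l and Rpl39l, known from the testis, had no peak in any list, and Rpl3l, of striated muscle, had 1 on day 4 alone (score 69.96). Rpl7l1 and Rpl36al were marked on all 3 days. Rps27l had a score of 50.31, near the minimum, on day 2, and of 442.52 (rank 464) on day 4.

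Ribosomal protein genes have many processed pseudogenes, and how the authors treated reads that match several places is not given in the sources used here. Of 318 annotated pseudogenes named after Rpl and Rps genes, 4 were marked by H3ac at a gene end in the day 2 list, 2 in that of day 4 and 2 in that of day 6, or 1.26%, 0.629% and 0.629%, beside 1.45%, 0.921% and 0.575% of all 10429 pseudogenes. HDAC1 was called at 3, or 0.943%, beside 0.393% of all pseudogenes. A peak overlapped the pseudogene itself at 1, 0 and 0 for H3ac and at 2 for HDAC1.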

How the data were processed

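The deposited files list the peaks of 4 ChIP libraries as chromosome, start, end, name and score. Reads were aligned with Bowtie 0.12.8 to mm10, per the submitters' processing notes. Peak names begin with MACS; for the caller's version, cut-off and use of the inputs, no source used here states them. The score is the authors' deposited value on an unstated scale, and served only for ranking within a list. Starts were raised by 1 to count from 1. Genes and promoters came from RefSeq tables of GRCm38.p6, which has mm10 coordinates. Strand was known for 56 of 76 members, those with a promoter sequence. For each gene the highest-scoring peak within 1 kb of either end was taken, and percentages have 95% Wilson intervals over genes, which cover counting error only. The read depth is unknown, and no p-value was computed because each group had 1 library and genes are not replicates. Peaks outside chromosomes 1 to 19, X and Y (10 on day 2 and 1 in each other list) met no gene. Genes were named by a rule: a set of members, all absences, all HDAC1 members, the extremes of score and width, and set lists. Members, lists and tests were chosen with earlier results of these data known. Rpl30, Rps10 and other genes of the extremes follow that rule; Rpl6 and the like are HDAC1 members. Some genes that the rule names are not reported here. Alternatives were other windows, equal list lengths, higher-scoring peaks, the 5′ end, isolated genes, midpoints and other matching. Counting internal peaks, snoRNA hosts, pseudogenes and the day 6 matching were added after values were seen. The split into X-linked and autosomal members was not among the planned results. Python 3.11.15, pandas 2.3.3, numpy 2.4.6 and scipy 1.17.1 were used, and the procedures were tested on simulated data.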

Additional observations from a re-analysis of the deposited data

How the results depend on the processing

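No paired analysis was possible because each group had 1 library and no result comes from a test. Of 104 recomputed values, 89 stayed within 1.5 times the count, or within the 95% interval of the median or share, and 15 moved. Only the differences in share could be scored as reversed, and none of them was. The interval of the HDAC1 difference is wide, so values from 1.7 to 14.6 points below all counted as staying. Requiring no other gene end within 2 kb left 36 members, of which 36, 35 and 34 were marked on days 2, 4 and 6, 2 were lost by day 6 and 8 had HDAC1; fewer genes enter by construction. Their day 6 share exceeded that of other genes by 23.7 points. With the higher-scoring 50% of each list, 19 members had a day 2 but no day 6 peak. HDAC1 was then called at 9, or 12.2% of those marked on day 2, beside 16.7% of other genes of the same deciles. With peak midpoints 20 members had a day 2 but no day 6 peak, and the day 6 excess was 9.2 points. The cause was not tested. Matching on width gave an excess of 25.9 points, against 18.2 as reported. Closer matching on score gave smaller values, 15.0 points with 20 score bins and 12.1 with the 100 genes nearest in rank. Equal list lengths gave 10.7 points, and no day 6 comparison was matched on gene length. Summing all gene-end peaks gave median widths of 2246 bp on day 2 and 1836 bp on day 4. Among genes with a gene-end peak, median ranks were 2.59% and 7.77% on days 2 and 4. Keeping the 5286 highest-scoring peaks of each list, 72, 70 and 68 members were marked. Shares over all genes were not computed for these shortened lists. The HDAC1 difference was negative under each alternative run, from 1.7 points below with isolated genes to 14.6 below with internal peaks. In the reading with internal peaks gene length was not matched, and members are short. Depth limits each absence.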

Other observations

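Ribosomal protein genes often carry small nucleolar RNA (snoRNA) genes in their introns, which guide the modification of ribosomal RNA. Of the 76 members, 29 contained annotated snoRNA genes, 58 in all. These 29 hosts had H3ac gene-end peaks on each of the 3 days, and the 47 other members had 47, 46 and 41 on days 2, 4 and 6. Every member without a day 6 peak was therefore a gene without an annotated snoRNA, Rpl19 with its internal peak among them. Median ranks of hosts were 123, 477 and 670 on days 2, 4 and 6, and those of the other members 220, 678 and 1181, with ranges that overlapped. HDAC1 was called at 7 hosts and 9 other members. The split was looked at after the absences were known, and it was not tested.

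Base composition of the promoter varied little with the absences. The 4 members with a sequence and no day 6 peak had a median GC content of 60.3%, and the 52 with a peak 56.8%. Across members the rho of GC content with score was 0.01 on day 2, 0.14 on day 4 and -0.19 on day 6 (n = 56, 55 and 52). Members with an ETS match had day 6 gene-end peaks in 20 of 23 cases and those without in 32 of 33. Rpl19, whose internal day 6 peak covers its annotated starts, has an ETS match and is among the 4 members without a gene-end peak. These splits were not tested.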
